A study of Mus musculus with 12 samples.

Results

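The genes described here are 9 protease, receptor and regulator genes of basophils and mast cells: *Prss34*, *Mcpt8*, *Cpa3*, *Ms4a2*, *Fcer1a*, *Hdc*, *Cd200r3*, *Gata2* and *Cyp11a1*. They were found by symbol, 9 of the 47643 genes in a table of TPM, a measure of transcript abundance in which the reads of a gene are divided by its length and every library has a common sum. The genes were selected on their measured levels in these same 12 libraries, which were low in 1 group and moved together, so their own levels and differences are given as a description, without a test.

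The RNA came from common lymphoid progenitors (CLPs), sorted from mouse bone marrow as lineage-negative cells with low Sca1, low c-Kit and IL7Rα on the surface. All mice were adult males of matched age, and each gave 1 poly(A)+ RNA-seq library. Of the 12 libraries, 4 were from wild-type (WT) mice and 4 from ∆*Firre* mice, which lack the gene body and promoter of the lncRNA *Firre* in every cell. That deletion was made by crossing a floxed allele to CMV-Cre, and Cre was then bred out. The other 4 were from *Firre* rescue mice. These carry the same deletion, a *Firre* cDNA transgene behind a tetracycline-responsive element, and the activator rtTA3 driven by CAG, and they were fed doxycycline. The deletion is thus shared by ∆*Firre* and *Firre* rescue mice, while transgene, rtTA3, doxycycline and a separate range of library numbers come together in *Firre* rescue and cannot be told apart. Regular chow is given as the general diet of the mice, and doxycycline is named for the rescue group alone. Whether WT and ∆*Firre* mice also received doxycycline is not stated in the labels. *Firre* itself was at 25.2 to 31.6 TPM in WT, was listed at 0 in all 4 ∆*Firre* libraries, and was at 59.9, 135.5, 63.0 and 174 TPM in *Firre* rescue replicates 1 to 4.

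Basophils and mast cells are granulocytes that carry the high-affinity IgE receptor, built from an IgE-binding α chain (*Fcer1a*), a signal-amplifying β chain (*Ms4a2*) and a γ chain that is shared with other receptors (*Fcer1g*). Cross-linking of this receptor by antigen releases stored histamine and proteases. In bone marrow, basophils arise from myeloid progenitors under GATA2 and C/EBPα. A CLP is the progenitor of B cells, T cells and other lymphocytes, and none of the 9 genes is among its usual markers.

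CLP markers were detected in every library. The summed TPM of 10 such markers was 6454 to 9042 in WT, 7516 to 7854 in ∆*Firre* and 9107 to 10030 in *Firre* rescue. Most of each sum was *Dntt*, the terminal transferase of lymphoid progenitors, at 4315 to 6725 TPM in WT. Other markers of the list were far lower. In WT, *Flt3* was at 508 to 677 TPM, *Ly6d* at 457 to 586 TPM and *Il7r* at 385 to 456 TPM. The lowest of the list in WT were *Ebf1* at 20.2 to 34.7 TPM and *Ly6a*, which encodes Sca1, at 24.1 to 41.0 TPM. Other mast cell genes were divided. Of 17 of them, 10 were listed at 0 in all 12 libraries, among them the chymases *Cma1* and *Mcpt4*, the tryptase *Tpsab1* and the receptor *Mrgprb2* (these 4 were picked after their values were seen). Another 6 had a mean of at least 1 TPM. The highest of these were *Srgn* at 505 to 696 TPM, *Kit* at 61.9 to 82.9 TPM and *Ndst2* at 30.2 to 39.0 TPM in WT. The tryptase *Tpsb2* was above 0 in WT replicate 11 alone, at 0.603 TPM. In these bulk libraries, fewer cells of a type and less RNA per cell cannot be told apart.

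The proteases were the most abundant of the 9 genes. *Prss34* (ENSMUSG00000056399.1, chr17:25298394-25300168 in GRCm38), the serine protease mMCP-11 of basophils, was at 4026, 448, 834 and 1315 TPM in WT replicates 6, 8, 10 and 11. In ∆*Firre* replicates 8, 9, 11 and 12, *Prss34* was at 1939, 1396, 1372 and 1413 TPM. In *Firre* rescue replicates 1 to 4 it was at 12.8, 23.8, 0 and 0 TPM. WT replicate 6 was the highest and WT replicate 8 the lowest of the 8 libraries outside the rescue, and every rescue library lay below all of them.

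*Mcpt8* (ENSMUSG00000022157.7, chr14:56082163-56085499), the basophil protease whose antibodies and reporter alleles are used to mark mouse basophils, followed at 2707, 207, 385 and 760 TPM in WT. Its ∆*Firre* values were 1280, 1030, 792 and 777 TPM, and its rescue values were 20.7, 22.6, 9.06 and 2.11 TPM. *Cpa3* (ENSMUSG00000001865.2, chr3:20215616-20242209), the carboxypeptidase of mast cell granules that is also expressed in basophils and early progenitors, was at 826, 191, 262 and 344 TPM in WT. The same libraries were thus highest and lowest for all 3 proteases. *Cpa3* was at 436, 371, 338 and 310 TPM in ∆*Firre* and at 75.9, 89.2, 84.8 and 61.4 TPM in the rescue. It was the only one of the 9 genes with more than 25 TPM in any rescue library.

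Of the receptor genes, *Fcer1a* (ENSMUSG00000005339.10, chr1:173221269-173227232) was at 784, 112, 155 and 170 TPM in WT and at 323, 180, 259 and 220 TPM in ∆*Firre*. In the rescue it was at 6.11 TPM in replicate 2 and listed at 0 in the other libraries. *Ms4a2* (ENSMUSG00000024680.12, chr19:11615517-11623790) was at 524, 74.0, 126 and 154 TPM in WT and at 265, 204, 174 and 169 TPM in ∆*Firre*. In the rescue *Ms4a2* was at 0.128 TPM in replicate 2 and at 0 in the others. *Cd200r3* (ENSMUSG00000036172.17, chr16:44943596-45058365), an activating receptor of the CD200 receptor family on basophils and mast cells, was at 131, 20.4, 29.5 and 35.9 TPM in WT. Its ∆*Firre* values were 62.7, 47.5, 42.9 and 31.4 TPM, and in the rescue it reached 1.02 TPM in replicate 1 and at most 0.0158 TPM elsewhere. For all 3 receptor genes, the WT and ∆*Firre* libraries overlapped and the rescue libraries stood below both.

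In WT and ∆*Firre*, the enzymes and the transcription factor were lower in level than the proteases, *Fcer1a* and *Ms4a2*. They had the same pattern. *Hdc* (ENSMUSG00000027360.5, chr2:126593659-126624025), histidine decarboxylase, which makes histamine, was at 64.7, 11.1, 15.7 and 17.3 TPM in WT and at 29.3, 19.4, 22.3 and 19.0 TPM in ∆*Firre*. It was at 0.634, 0.0702, 0.518 and 0.565 TPM in the rescue. *Cyp11a1* (ENSMUSG00000032323.13, chr9:57998024-58027031), the mitochondrial enzyme that turns cholesterol into pregnenolone at the first step of steroid synthesis, was at 84.1, 18.2, 20.7 and 19.9 TPM in WT. Outside WT replicate 6, the WT values of *Cyp11a1* varied least of the 9 genes, 19.6 ± 1.27 TPM (SD, n = 3), and its ∆*Firre* values were 32.7, 19.6, 29.2 and 19.3 TPM. In the rescue it did not exceed 0.486 TPM. *Gata2* (ENSMUSG00000015053.14, chr6:88193891-88207032), the zinc finger factor needed for basophil and mast cell development, was at 178, 20.8, 34.8 and 37.9 TPM in WT and at 48.6, 40.0, 41.5 and 28.9 TPM in ∆*Firre*. In the rescue it was at 0, 0.565, 0 and 0.413 TPM. Of the 9 genes, *Gata2* had the widest ratio between WT replicate 6 and the highest ∆*Firre* library.

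**Figure D1:**
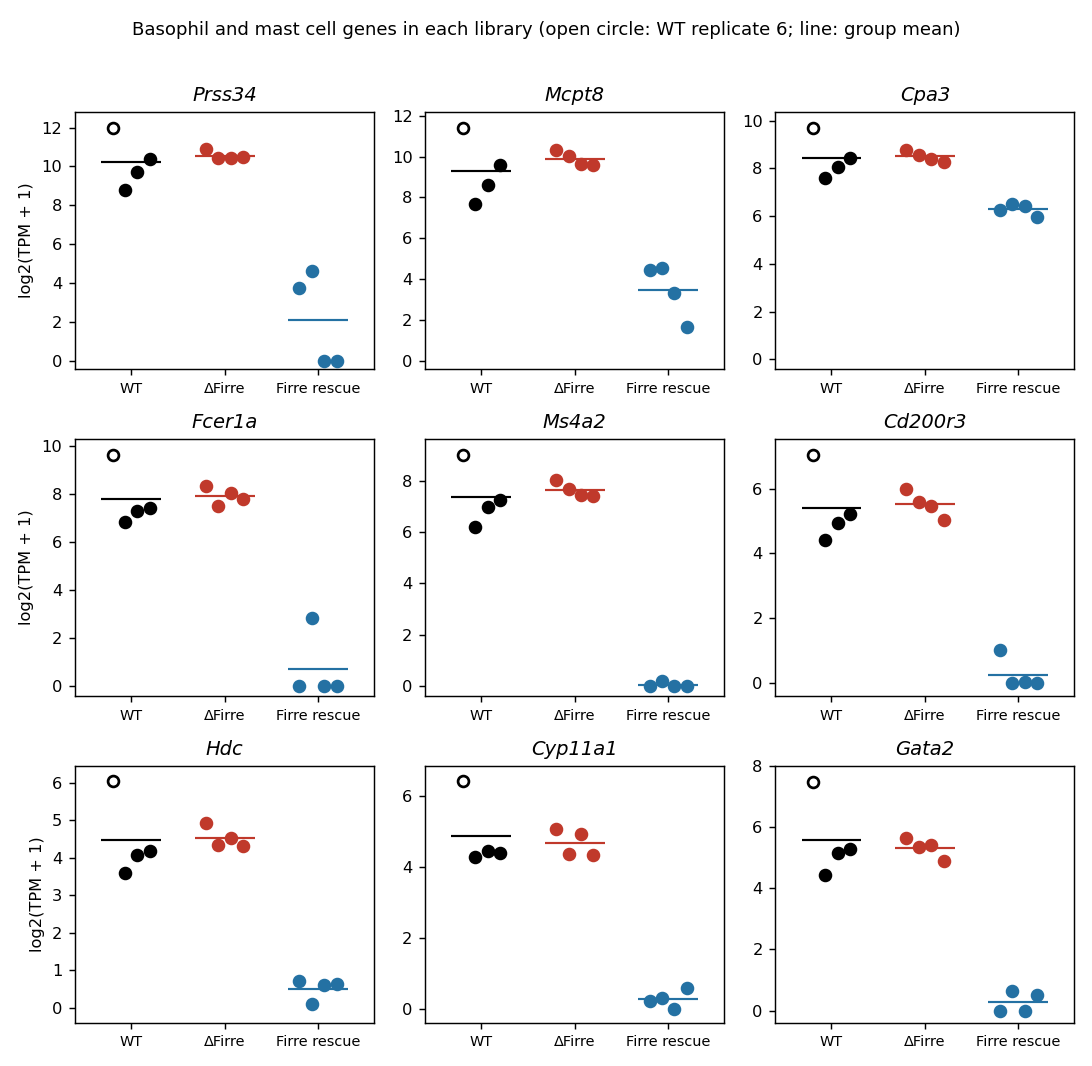
Levels of the 9 basophil and mast cell genes, as log2(TPM + 1), in 4 WT, 4 ∆*Firre* and 4 *Firre* rescue libraries. Each point is 1 library, the open circle is WT replicate 6, and lines are group means. WT replicate 6 is the highest library in all 9 panels, and the 4 rescue libraries lie below the other 8 in each, with *Cpa3* the nearest to them.

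By mean over the 8 WT and ∆*Firre* libraries, the order of the TPM levels, which are per length, was *Prss34* (1593), *Mcpt8* (992), *Cpa3* (385), *Fcer1a* (275), *Ms4a2* (211), *Gata2* (53.8), *Cd200r3* (50.2), *Cyp11a1* (30.5) and *Hdc* (24.9). Most neighbours kept this order in all 8 libraries. *Fcer1a* was above *Ms4a2* in 7 of them, while *Gata2* was above *Cd200r3* in all 4 WT libraries and below it in all 4 ∆*Firre* libraries. The ratio of *Prss34* to *Mcpt8* within a library ranged from 1.49 to 2.17 in WT and from 1.36 to 1.82 in ∆*Firre*. That of *Fcer1a* to *Ms4a2*, the α and β chains of one receptor, ranged from 1.11 to 1.52 in WT and from 0.881 to 1.49 in ∆*Firre*. The ratio of *Cpa3* to *Mcpt8* was less even in WT, from 0.305 in replicate 6 to 0.926, the level of *Cpa3* moving less between libraries than that of *Mcpt8*.

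Within WT and ∆*Firre*, the 9 genes rose and fell together from library to library. WT replicate 6 was the highest WT library for 9 of the 9 genes, against 22.5% of the 14479 genes with a mean of at least 1 TPM. It was also the highest of all 12 libraries for each of them, against 7.85%. Within the WT group, replicate 8 was the lowest library for 9 of 9, against 34.3%. Among ∆*Firre* libraries, replicate 8 was the highest for 9 of 9 (20.5% of all genes) and replicate 12 the lowest for 7 of 9 (18.6%). The summed TPM of the 9 genes was 9325, 1102, 1863 and 2854 in WT, 4416, 3308, 3071 and 2987 in ∆*Firre*, and 111, 143, 94.4 and 65.0 in the rescue. WT replicate 6 thus spent 0.933% of its transcripts on these genes, 5.01-fold the median of the other WT libraries, and the single genes were 3.15-fold (*Cpa3*) to 7.04-fold (*Mcpt8*) above that median.

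Over the 8 WT and ∆*Firre* libraries, with the group means of log2(TPM + 1) removed, the 36 pairs of genes had a median Pearson r of 0.970, from 0.855 to 0.996. These r values describe libraries that share WT replicate 6. Without WT replicate 6 the median over 7 libraries was 0.844, from 0.290 to 0.984, and without WT replicates 6 and 8 it was 0.769 over 6 libraries, from 0.239 to 0.963. With the 4 rescue libraries added, where most of the genes were at or near 0, the median r over 12 libraries was 0.788, from 0.326 to 0.973. In the 4 rescue libraries alone, where many values were 0 or rested on a few reads, whether the genes moved together could not be read.

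Other genes with the same course were sought over the 12 libraries, with group means removed, by their r with the mean of the 9. Of 14470 genes compared, 19 had an r above 0.9, and 3 did without WT replicate 6. The 10 most alike were *Cdh1* (r 0.971), *Ccl9* (0.955), ENSMUSG00000095115.2 (0.953), *Dmxl2* (0.943), *Gstm1* (0.937), *Tmem71* (0.937), *Tmsb4x* (0.935), *Ptplad2* (0.927), *Ccl3* (0.917) and *Atp6v0e* (0.915). For *Cdh1*, which encodes E-cadherin, the TPM values were 125, 20.5, 28.8 and 39.7 in WT, 56.1, 43.3, 45.5 and 41.9 in ∆*Firre*, and 1.005, 0.588, 0 and 0 in the rescue. The chemokine gene *Ccl9* was at 395, 58.1, 93.7 and 98.1 TPM in WT, 192, 130, 122 and 106 in ∆*Firre*, and 9.67, 7.54, 3.41 and 2.02 in the rescue. Both repeated the order of the proteases in WT, and both had an r of about 0.9 without WT replicate 6. For the other 8 genes r was then between 0.725 (*Ptplad2*) and 0.830. *Atp6v0e* moved with the 9 genes within the groups, and it was higher in the rescue (66.0 TPM on average) than in WT (52.6) and ∆*Firre* (51.2). The points of all these correlations share their libraries.

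Because the 9 genes moved together, the sequence before their start sites was read from RefSeq's windows of GRCm38.p6, which hold 250 bases before and 50 after a start. All 9 genes had a window, and *Gata2* and *Cyp11a1* had a second, 11 in all. Searched on both strands were the core of GATA factors in its 4 spellings, which are AGATAA itself, AGATAG with another last base, TGATAA with another first base, and TGATAG with both changed. Also searched were the RUNX core TGTGGT, the C/EBP palindrome TTGCGCAA, the TATA box as TATAAA, the CCAAT box and the CACCC box. AGATAA or its reverse complement TTATCT was in 5 of the 11 windows, of 5 genes, and in 11.2% of 32851 windows of all genes. The other GATA spellings were in 2, 1 and 1 member windows (8.95%, 9.05% and 7.29% of all windows), with AGATAG and TGATAA in the *Cd200r3* window, which also holds AGATAA. The RUNX core TGTGGT was in 4 (16.8%), TTGCGCAA in none (0.183%), TATAAA in 2 (13.6%), CCAAT in 5 (37.4%) and CACCC in 4 (57.5%). No AGATAA was in the windows of *Mcpt8*, *Hdc*, *Gata2* and *Cyp11a1*, which says only that these letters are not there. The 120 bases before the start are shown for the 5 genes that hold AGATAA, because in 4 of them a match begins between 11 and 46 bases before the start that the window uses. They are chr17:25298274-25298393 (plus strand), chr3:20242182-20242301 (minus), chr19:11623720-11623839 (minus), chr16:44943558-44943677 (plus) and chr1:173227230-173227349 (minus), each 5′ to 3′ on the strand of the gene, with AGATAA or TTATCT in capitals.
*Prss34*: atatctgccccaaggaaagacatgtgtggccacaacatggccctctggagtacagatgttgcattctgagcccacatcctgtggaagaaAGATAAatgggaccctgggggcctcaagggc
*Cpa3*: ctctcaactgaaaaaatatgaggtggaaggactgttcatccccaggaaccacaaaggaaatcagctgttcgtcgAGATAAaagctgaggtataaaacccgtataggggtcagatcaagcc
*Ms4a2*: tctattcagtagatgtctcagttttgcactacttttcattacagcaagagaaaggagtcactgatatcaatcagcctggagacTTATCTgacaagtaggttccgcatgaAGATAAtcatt
*Cd200r3*: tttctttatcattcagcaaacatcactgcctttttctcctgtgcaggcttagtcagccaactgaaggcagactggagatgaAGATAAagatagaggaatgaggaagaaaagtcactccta
*Fcer1a*: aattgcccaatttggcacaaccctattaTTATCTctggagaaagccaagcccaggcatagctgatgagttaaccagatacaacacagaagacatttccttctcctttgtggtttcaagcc
The match begins 31 bases before the start in *Prss34*, 46 in *Cpa3*, 39 in *Cd200r3* and 92 in *Fcer1a*. *Ms4a2* has 2 in the bases shown, 37 and 11 before the start, and another at 224. In *Cpa3* the letters TATAAA follow at 31. RefSeq's outer limits of the gene reach farther upstream than the start of the window, by 71 bases in *Ms4a2*, 82 in *Cd200r3*, 28 in *Cpa3* and 3 in *Fcer1a*. The *Ms4a2* matches at 37 and 11 and the *Cd200r3* match at 39 thus lie inside these limits, and which start these cells use was not measured. These are matches of letters, and binding was not measured in these cells.

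Between ∆*Firre* and WT, the question was whether loss of *Firre* moved these genes, and the libraries of the 2 genotypes overlapped for all 9 (of all genes, 0.843% were higher and 4.49% lower in every ∆*Firre* library than in every WT library). The difference in mean log2(TPM + 1), ∆*Firre* minus WT, ranged from −0.27 (*Gata2*, standard error 0.50) to 0.58 (*Mcpt8*, standard error 0.73). It was above 0 for 7 of the 9 and below 0 for *Gata2* and *Cyp11a1* (−0.20), and each was smaller than its standard error. The fit held the 3 groups together, so these standard errors also take in the spread of the rescue libraries. *Firre* rescue against ∆*Firre* uses these same ∆*Firre* libraries.

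The sign depended on which libraries were kept. Without WT replicate 6, all 9 differences were above 0, from 0.31 (*Cyp11a1*, standard error 0.25) to 1.27 (*Mcpt8*, standard error 0.62). For 5 of the 9 genes, *Prss34*, *Mcpt8*, *Fcer1a*, *Ms4a2* and *Hdc*, every ∆*Firre* library then lay above the 3 WT libraries left, where 2.11% of all genes did so, and nothing is read from this count. Without WT replicate 8 instead, 1 of the 9 differences was above 0, that of *Mcpt8* at 0.04, and that of *Gata2* was −0.65. Without WT replicate 10, and likewise without ∆*Firre* replicate 8, 3 of the 9 were above 0.

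The library numbers in the sample titles fall in ranges that each hold 2 WT and 2 ∆*Firre* libraries, and the differences had opposite signs in them. Within the range with WT replicates 8 and 11 and ∆*Firre* replicates 8 and 11, all 9 genes were higher in ∆*Firre*, from 0.58 (*Cpa3*) to 1.34 (*Mcpt8*) on the log2 scale. Within the range with WT replicates 6 and 10 and ∆*Firre* replicates 9 and 12, all 9 were lower in ∆*Firre*, from −0.19 (*Mcpt8*) to −1.19 (*Gata2*). With the range as a covariate, 7 of the 9 differences over all these libraries were above 0, as without it. Of all genes tested, 4 were then called, against 3 without the covariate. What the ranges stand for is not given in the labels, and why the signs differ between them was not tested.

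**Figure D2:**
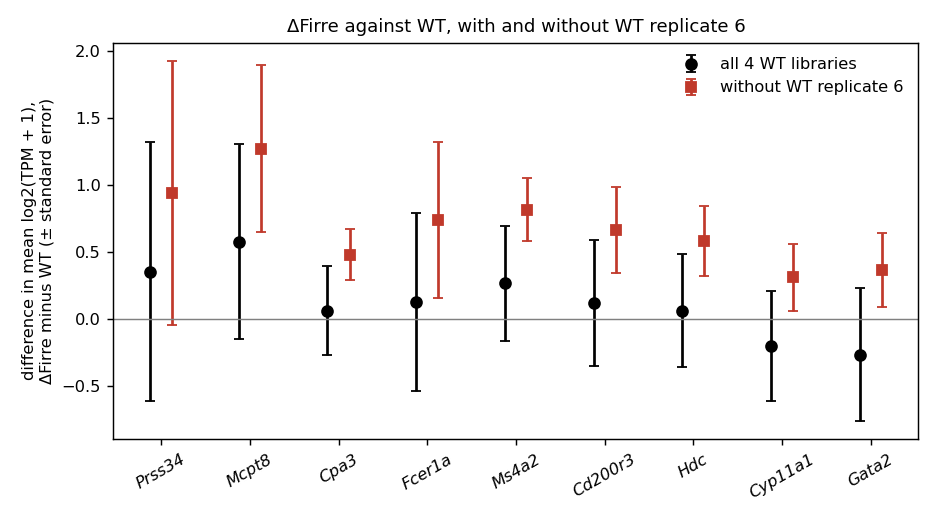
Difference in mean log2(TPM + 1) between ∆*Firre* and WT for the 9 genes, with all 4 WT libraries (circles) and without WT replicate 6 (squares). Bars are standard errors of the limma fit over the 3 groups, so the spread of the rescue libraries enters them too. With all libraries the values lie between −0.27 and 0.58 and within 1 standard error of 0, and without WT replicate 6 all lie above 0.

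WT replicate 6 stood apart in some other lists too. Of 15 other basophil genes with a mean of at least 1 TPM, 15 were highest among WT libraries in replicate 6, against 22.5% of all genes. Their summed TPM there was 2.66-fold the median of the other WT libraries. This ratio was 1.26 for other mast cell genes, 1.09 for regulators and 0.960 for kinases and adaptors of the IgE receptor. It was 1.05 for innate lymphoid type 2 markers and 0.876 for plasmacytoid dendritic cell markers. WT replicate 6 also had the most genes above 0, 19877, followed by ∆*Firre* replicate 8 with 19098, against 15472 to 18109 in the other WT and ∆*Firre* libraries. In both of these libraries, 5 of the 9 neutrophil and granulocyte-monocyte markers, *S100a8*, *S100a9*, *Camp*, *Ngp* and *Ltf* (picked after their values were seen), were below 1 TPM. The other 4 were not below 1 TPM in both. *Ctsg* was highest of its group in both libraries, at 225 TPM in WT replicate 6 and 150 in ∆*Firre* replicate 8. *Mpo* went opposite ways, at 260 TPM in WT replicate 6, the highest WT value, and at 168 TPM in ∆*Firre* replicate 8, the lowest ∆*Firre* value. *S100a8* was at 0.909 TPM in WT replicate 6 and 0.296 in ∆*Firre* replicate 8, where the other WT and ∆*Firre* libraries had 145 to 340 TPM. *S100a9* was at 0.403 and 0 TPM against 273 to 822. In *Firre* rescue replicate 3, these 5 markers were below 1 TPM as well, with the 9 genes at a sum of 94.4 TPM. The sum of 9 eosinophil markers was 138 TPM in WT replicate 6, against 32.1 to 89.2 in the other WT libraries, and 62.6 to 215 in ∆*Firre*. Of the 138 TPM, 90.4 were *Prg2*, and 6 of the 9 markers were highest among WT libraries in replicate 6. Summed CLP markers were lowest in WT replicate 6. The part of these other cell types in the levels of the 9 genes was not tested.

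**Figure D3:**
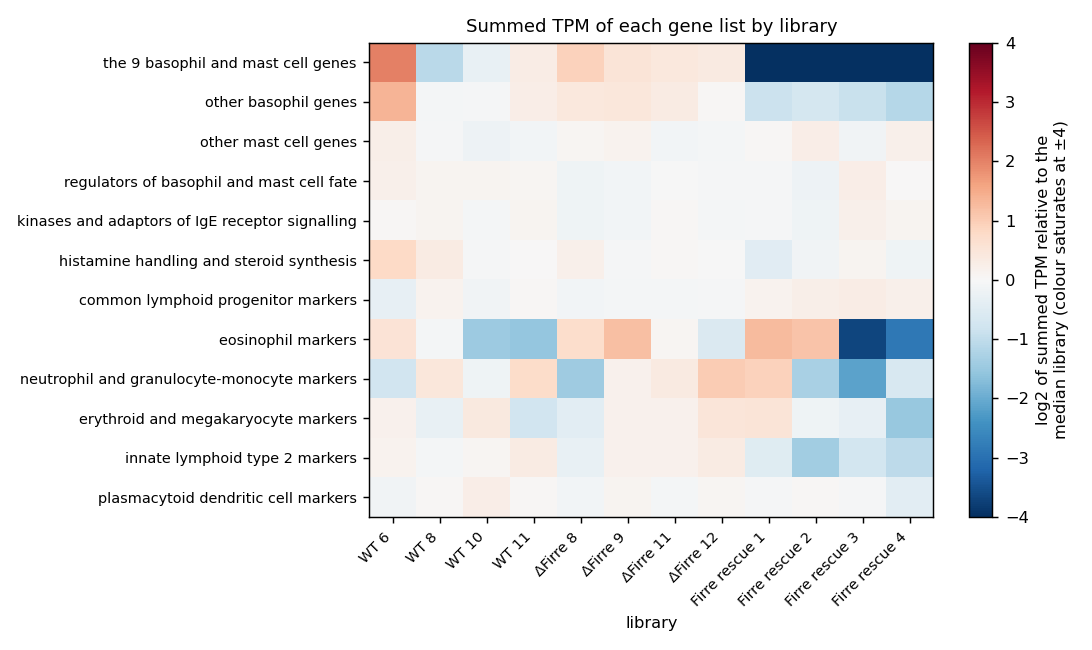
Summed TPM of each gene list in each of the 12 libraries, as log2 relative to the median library for that list, with colour saturating at ±4. The top row, the 9 basophil and mast cell genes, is highest in WT replicate 6 (9325 TPM) and saturates low in the 4 rescue libraries (65.0 to 143 TPM). The row of CLP markers, a sum that is mostly *Dntt*, varies little, though 3 of the 10 markers were called higher in the rescue than in ∆*Firre*.

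In *Firre* rescue against ∆*Firre*, where both groups carry the deletion, all 9 genes were lower. Transgene, rtTA3, doxycycline and the range of library numbers differ together between these groups, and their parts cannot be told apart. The mean TPM in the rescue was 0.598% of that in ∆*Firre* for *Prss34*, 1.40% for *Mcpt8*, 0.623% for *Fcer1a*, 0.564% for *Cd200r3*, 1.98% for *Hdc*, 0.881% for *Cyp11a1* and 0.615% for *Gata2*. *Cpa3* stood apart from them at 21.4%. *Ms4a2*, at 0.0157%, rested on 4 reads in all rescue libraries together. As differences in log2(TPM + 1), which understate the change of low genes, the values ran from −8.46 (*Prss34*, standard error 0.97) and −7.60 (*Ms4a2*, 0.43) to −4.02 (*Hdc*, 0.42) and −2.21 (*Cpa3*, 0.33). All 9 were lower in every rescue library than in every ∆*Firre* library, where 15.6% of all genes were, and than in every WT library, where 14.5% were. Nothing is read from these counts, since the genes were chosen with this pattern known.

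The rescue libraries held more reads than the others. From 25004124 to 31680785 reads were recovered for the genes tested in each rescue library, against 10668219 to 17672179 in WT and ∆*Firre* libraries. Over the 4 rescue libraries, 4800 reads were from *Cpa3*, 476 from *Mcpt8*, 465 from *Prss34*, 111 from *Hdc*, 68 from *Fcer1a*, 57 from *Cd200r3*, 55 from *Gata2* and 42 from *Cyp11a1*. The 68 reads of *Fcer1a* were all from replicate 2, and 56 of the 57 reads of *Cd200r3* were from replicate 1. Where *Fcer1a* was listed at 0, the limit that a count of 0 allows (3 reads) was 0.284 to 0.329 TPM, and for *Ms4a2* it was 0.101 to 0.117 TPM. Reads were counted without molecular identifiers, so such limits cover counting error only.

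Genes of the same cells and pathways that are not among the 9 were tested in a limma fit over all 14479 genes, with 53 of 70 listed genes high enough to be tested. In ∆*Firre* against WT, 0 of the 53 were called (an adjusted p of at most 0.1), where 0.0207% of all genes were, and 0 reached an unadjusted p of 0.05, which 5.3% of all genes did. With limma-voom on the recovered reads, 0 were called as well. In *Firre* rescue against ∆*Firre*, 23 were called lower and 8 higher, where 19.3% of all genes were called lower and 8.58% higher. In *Firre* rescue against WT, 22 were lower and 3 higher (19.4% and 4.82% of all genes). The split against WT moved with the scaling, to 8 higher of 27 called after rescaling by the median ratio and 9 of 28 with limma-voom, and against ∆*Firre* it was 11 higher of 32 called under each.

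By count, the basophil list, which also had the most genes tested, held the most genes called. Of the 4 innate lymphoid type 2 genes tested, 3 were called. Of 15 other basophil genes tested, 11 were lower in the rescue than in ∆*Firre* and 0 higher, with a median log2 difference of −2.13 beside −0.16 over all genes tested, and 11 were lower than in WT, with a median of −2.24 beside −0.21. Without WT replicate 6, 10 were lower than in WT. *Ccl3*, a chemokine of activated basophils and other leukocytes, fell by 3.25 on the log2 scale from 119 to 170 TPM in ∆*Firre* to 8.51 to 21.9 TPM in the rescue (limma adjusted p = 0.000208). *Il6* was at 9.19 to 19.3 TPM in ∆*Firre* and listed at 0 in all 4 rescue libraries (limma adjusted p = 0.00219). *Il18r1*, a subunit of the interleukin 18 receptor, was at 146 to 170 TPM in ∆*Firre* and 48.5 to 95.0 TPM in the rescue, and its level fell by 1.21 on the log2 scale (limma adjusted p = 0.00129). The other 8 called genes, picked after their values were seen, were *Csf2rb* and *Csf2rb2* (β chains of the interleukin 3 receptor family), *Il4*, *Cd200r1* and *Cd200r4* (receptors of the family of *Cd200r3*), *Itga2* (the integrin α chain CD49b), *Osm* and *Aqp9*. Their differences ran from −0.94 (*Osm*) to −2.84 (*Cd200r1*). The 4 genes not called were *Fcer1g*, *Ltc4s* (a log2 difference of −0.07), *Il3ra*, the α chain of the interleukin 3 receptor (0.81), and *Ccl4* (0.67). Without *Firre* rescue replicate 4, 1 gene of the list was called higher.

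The γ chain of the IgE receptor, which other leukocytes also use, was not called. *Fcer1g* was at 184 to 305 TPM in ∆*Firre* and 93.5 to 206 TPM in the rescue, a log2 difference of −0.62 (standard error 0.31, limma adjusted p = 0.187). Of the kinases and adaptors behind the receptor, 14 were tested, and 3 were lower and 3 higher in the rescue than in ∆*Firre*, with a median of 0.02. After rescaling by the median ratio, and likewise with limma-voom, 5 were higher and 2 lower. The phospholipase gene *Plcg2* was at 187 to 230 TPM in ∆*Firre* and 244 to 381 TPM in the rescue, a log2 difference of 0.50 (limma adjusted p = 0.0275). The adaptor gene *Gab2* fell by 0.83 on the log2 scale (limma adjusted p = 0.0150). The adaptor genes *Grb2* and *Vav1*, with log2 differences of −0.01 and 0.12, were not called.

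Of the other mast cell genes, 6 were tested, and 3 were lower in the rescue than in ∆*Firre*, with a median of −0.50. *Kit*, the stem cell factor receptor that CLPs also express, fell by 0.49 on the log2 scale (limma adjusted p = 0.0137), from 68.6 to 80.9 TPM in ∆*Firre* to 48.2 to 62.3 TPM. *Il1rl1*, the interleukin 33 receptor, fell by 1.79 (limma adjusted p = 0.0275) and *Ndst2*, a heparin-modifying enzyme, by 0.51 (limma adjusted p = 0.0522), a call lost without ∆*Firre* replicate 8, 9 or 12. The proteoglycan gene *Srgn*, at 523 to 649 TPM in ∆*Firre* and 546 to 788 TPM in the rescue, was not called.

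Of the genes that handle histamine or make steroids beside *Hdc* and *Cyp11a1*, 5 were tested, and 2 were lower and 1 higher in the rescue than in ∆*Firre*. *Slc18a2*, the vesicle transporter that loads histamine into granules, was at 27.0 to 41.6 TPM in ∆*Firre* and 0.896 to 5.05 TPM in the rescue, and fell by 3.13 on the log2 scale (limma adjusted p = 0.000784). Of the electron carriers that serve CYP11A1, *Fdx1* had a log2 difference of 0.37 and was not called, and *Fdxr* rose by 0.60 (limma adjusted p = 0.0923), a call lost in 8 of 15 other settings. The later steroid enzymes *Hsd3b1*, *Hsd3b6* and *Cyp17a1* (named after their values were seen) were listed at 0 in all 12 libraries.

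Of 13 regulators of basophil and mast cell fate, 4 were lower and 4 higher in the rescue than in ∆*Firre*. *Cebpa*, which directs progenitors to granulocytes, was at 30.3 to 53.9 TPM in ∆*Firre* and 9.76 to 19.3 TPM in the rescue, and fell by 1.60 on the log2 scale (limma adjusted p = 0.00829). *Zfpm1*, which encodes the GATA cofactor FOG1, rose by 1.64 (limma adjusted p = 0.00305), from 4.57 to 9.84 TPM in ∆*Firre* to 13.5 to 35.3 TPM. *Irf8* and *Stat5b* rose by 0.36 and 0.31 (limma adjusted p = 0.0911 and 0.0925), and these calls were lost in 7 and 8 of 15 other settings. *Ikzf1*, a lymphoid regulator, had a log2 difference of 0.01.

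**Figure D4:**
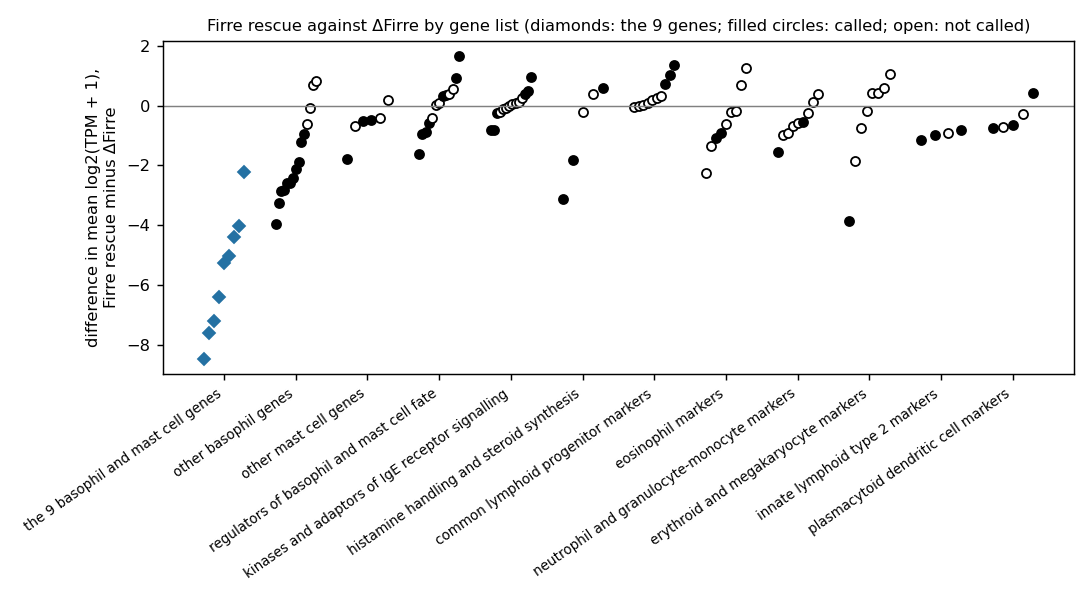
Difference in mean log2(TPM + 1) between *Firre* rescue and ∆*Firre* for each gene tested, by list. Diamonds are the 9 basophil and mast cell genes, filled circles are genes called at a limma adjusted p of 0.1 or less, and open circles were not called. The 9 genes lie between −8.46 and −2.21, and 11 of the 15 other basophil genes are called and below 0.

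Markers of other cell types were read beside the rescue result. Of 10 CLP markers, 3 were higher and 0 lower in the rescue than in ∆*Firre*. After rescaling by the median ratio 4 were higher, and with limma-voom 6 of the 9 tested were. *Ly6d*, which marks CLPs biased to B cells, was at 1065 to 1560 TPM in the rescue. It was at 458 to 547 TPM in ∆*Firre* and 457 to 586 TPM in WT. Of 9 eosinophil markers 2 were lower, *Il5ra* and *Siglecf* (limma adjusted p = 0.0971 and 0.0736). Neither was called with no filter on low values, without any 1 of the ∆*Firre* libraries or without *Firre* rescue replicate 4. The summed eosinophil markers split the rescue libraries. They were at 225 and 207 TPM in replicates 1 and 2 and at 7.40 and 13.0 TPM in replicates 3 and 4. *Prss34*, picked after its values were seen, was above 0 in replicates 1 and 2 alone. *Cyp11a1* was highest in replicate 4, at 0.486 TPM, and *Gata2* was at 0 in replicate 1 and 0.413 TPM in replicate 4. Whether the 9 genes followed this split could not be read, since many values were 0 or rested on few reads. The eosinophil granule gene *Prg2* was at 171 and 112 TPM in replicates 1 and 2, in which *Ms4a2* was at 0 and 0.128 TPM. Of 9 neutrophil and granulocyte-monocyte markers 2 were lower, *Mpo* (−0.56) and *Ctsg* (−1.55). Of 8 erythroid and megakaryocyte markers 1 was lower, *Itga2b*, at 21.3 to 30.8 TPM in ∆*Firre* and at most 1.45 TPM in the rescue. Of 4 markers of innate lymphoid type 2 cells 3 were lower, with log2 differences of −0.82 (*Gata3*) to −1.14 (*Rora*), and of 5 plasmacytoid dendritic cell markers 2 were lower and 1 higher (1 to 3 lower and 0 or 1 higher over the alternatives). The part of these cell types in the low levels of the 9 genes was not tested.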

How the data were processed

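Poly(A)+ RNA of CLPs from 12 mice, 4 per group, was sequenced in paired ends. Per the labels and the study's methods, the authors trimmed reads with cutadapt, mapped them to mm10 with TopHat2 2.1.1, counted them on the Gencode annotation with featureCounts, and deposited TPM for 47643 genes. Strand, multi-mapping and gene length settings are not given in the sources used here.

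Values were set to log2(TPM + 1). The 14479 genes with a mean of at least 1 TPM were fitted with limma 3.58.1 in R 4.3.3 (variance trend, 3 groups in 1 fit), with two-sided p-values adjusted by Benjamini-Hochberg and called at 0.1, and the fit was tested on simulated data. Reads were recovered from the spacing of TPM values, whole within 0.05 for 98.8% of the genes tested, and served for depth and for limma-voom. Groups were taken from titles and genotypes. Symbols were matched for 32799 genes, and *Firre* and 4 further listed genes by older symbols.

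The 9 genes and all lists were chosen with earlier results of these data known. Named were *Firre*, the 9 genes, the 10 most alike, and in each list the 3 genes of highest mean TPM and the called gene of largest difference per comparison. A gene that this rule names is not reported here. Replicates are separate mice. The alternatives tried were pseudocounts of 0.1 and 5, no filter, a mean of at least 5 TPM, rescaling by median ratio, only the compared groups, limma-voom, blocks and each library left out. Summaries within library number ranges or without WT replicates 6 and 8 were chosen after seeing the data.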

Additional observations from a re-analysis of the deposited data

Results flagged for a closer look

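In 24 of 204 sets of 4 libraries, 1 library stood farther from the other 3 than Dixon's 95% limit, which chance alone passes in about 1 in 20 sets. On the log2 scale 18 did. The sets include 27 of the 9 genes, 9 of them past the limit, and sets of genes named because they moved with the 9. These were chosen on the same levels, so the count is not set against chance. WT replicate 6 was that library for most of them. Among the 9 genes it was the high one for *Fcer1a* (784 TPM), *Cd200r3* (131), *Hdc* (64.7), *Cyp11a1* (84.1) and *Gata2* (178). Among other genes named it was the high one for *Il6* (62.4), *Ccl3* (399.6), *Ccl9* (395), *Csf2rb* (269), *Csf2rb2* (120), *Il1rl1* (34.8), *Itga2b* (92.4), *Ptplad2* (53.5) and *Atp6v0e* (66.0 TPM).

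∆*Firre* replicate 8 stood high for *Prss34* (1939 TPM) and *Ly6d* (547 TPM). In the rescue, replicate 2 stood high for *Fcer1a* (6.11), *Ms4a2* (0.128) and *Ear2* (28.6 TPM), replicate 1 for *Cd200r3* (1.02) and *S100a8* (439 TPM), and replicate 4 for *Gab2* (14.5 TPM). WT replicate 10 stood high for *Irf8* (280 TPM), and ∆*Firre* replicate 11 stood low for *Ndst2* (33.1 TPM).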

How the results depend on the processing

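All 9 genes were lower in the rescue than in ∆*Firre* and WT under every alternative run, but the size moved beyond 1 SD in 20 of 63 values against each group. Against ∆*Firre*, *Ms4a2* ran from −12.55 (limma-voom) to −5.35 (pseudocount 5), where −7.60 is reported, and *Cpa3* from −2.23 to −2.09. In 17 of 72 values with 1 library left out, and in 0 of 81 under other settings, the sign between ∆*Firre* and WT changed. Of the other listed genes, 24 to 32 were called in *Firre* rescue against ∆*Firre* over the alternatives (31 as reported) and 23 to 28 against WT (25). In 2338 recomputed values of 50 named listed genes 0 calls reversed, 82 were lost and 30 gained. Between ∆*Firre* and WT, 3 of all genes tested were called as reported, 6 with no filter, 1 with only the compared groups in the fit, 0 with limma-voom, and 1 to 5 with 1 library left out (1 without ∆*Firre* replicate 9 or 11, 5 without replicate 12). Between *Firre* rescue and WT, 3512 were called as reported and 2263 with only these groups in the fit. Rescaling by the median ratio moved the split of calls, from 1242 higher of 4043 to 1901 of 3763 against ∆*Firre*, and from 698 of 3512 to 1306 of 2550 against WT. The cause was not tested.

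With mouse numbers 8 and 11 as a replicate block, 3 genes were called between ∆*Firre* and WT, as without it, and 670 had an unadjusted p under 0.05, against 767. Deviations of same-numbered libraries did not go together (r −0.033 and −0.041 across genes), so the numbers were not taken to pair the samples.

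Levels of most of the 9 genes in single rescue libraries rest on few reads. Of the 9 differences between ∆*Firre* and WT, 7 were above 0 as reported, 9 without WT replicate 6, 1 without WT replicate 8, 3 without WT replicate 10 or ∆*Firre* replicate 8, and 6 without WT replicate 11.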
